A study of Mus musculus with 8 samples.

Results

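Neurotrophins are secreted growth factors, made as longer precursors, that act on neurons through Trk receptor kinases and through the p75 receptor. The ligands Bdnf and Ntf3, the Trk receptors Ntrk2 and Ntrk3, the p75 receptor Ngfr and the sorting receptor Sort1 were examined here, 6 genes of 19751 with a measured probe. Members were all non-control probes that carry 1 of these 6 gene names in the array files, which gave 13 probes, and all 13 were well above background on 4 of 4 ischemia and 4 of 4 control arrays. The rule that picks the probes uses gene names only. The tissue was the cortex of male C57BL/6NCr mouse pups at postnatal day 1.5, with 1 one-colour Agilent array per pup and 4 pups in each of the groups ischemia and control. Ischemia pups came from anesthetized mothers whose uterine arteries had been clipped shut for 14 min at E16.5, late in gestation, and control pups from mothers without this occlusion. Whether control mothers had surgery without clipping, and which pups shared a mother, is not stated in the labels. The p-values therefore rest on the spread between the arrays of these pups, which includes technical spread, and not on that between litters. The ischemia arrays lay in 1 row of the slide and the control arrays in the other, so slide row and group cannot be told apart.

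As background, Bdnf binds TrkB, the product of Ntrk2, and neurotrophin-3, the product of Ntf3, binds TrkC, the product of Ntrk3. Both Trk genes also make truncated receptors that keep the ligand-binding part and lack the kinase. The p75 receptor binds all neurotrophins, and together with sortilin, the product of Sort1, it binds the uncleaved precursors. In the developing cortex these signals bear on neuronal survival, dendrite growth and synapse formation, and truncated TrkB is the form that astrocytes mainly make.

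All values are on a log2 scale: the processed signal of a probe over the 75th percentile of its array, so that 0 is the level of that percentile. They compare a probe between arrays, and the level of one probe says nothing about the level of another. Negative log2 differences mean less signal in ischemia.

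No difference between ischemia and control beyond the spread between arrays was detected for any neurotrophin or receptor probe. Of the 13 probes, 10 were higher and 3 lower in ischemia by their means, 0 were called by limma at an adjusted p under 0.05, and 0 had an unadjusted p under 0.05. Of all probes kept, 43.3% were higher in ischemia by their means. The 13 probes read 6 genes on the same arrays, so their signs are not 13 separate observations. Ischemia and control arrays overlapped for every one of the 13 probes. Over all 27131 probes kept, 0% were called higher and 0% lower, 3.05% were higher and 7.06% lower at an unadjusted p under 0.05, and in 2.18% the ischemia arrays all lay above and in 4.05% all below the control arrays. The median difference was 0.07 over the 13 probes and -0.02 over all probes kept. The median size of the difference, whatever its sign, was 0.077 over the 13 and 0.092 over all. The standard errors of the 13 lay between 0.072 and 0.217, with a median of 0.115 against 0.0997 for all probes. At their outermost, the 95% intervals of the 13 reached 0.697-fold and 1.45-fold of control. Each interval is for 1 probe and is not adjusted for the number of probes, so larger differences remain possible with 4 arrays per group.

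**Figure D1:**
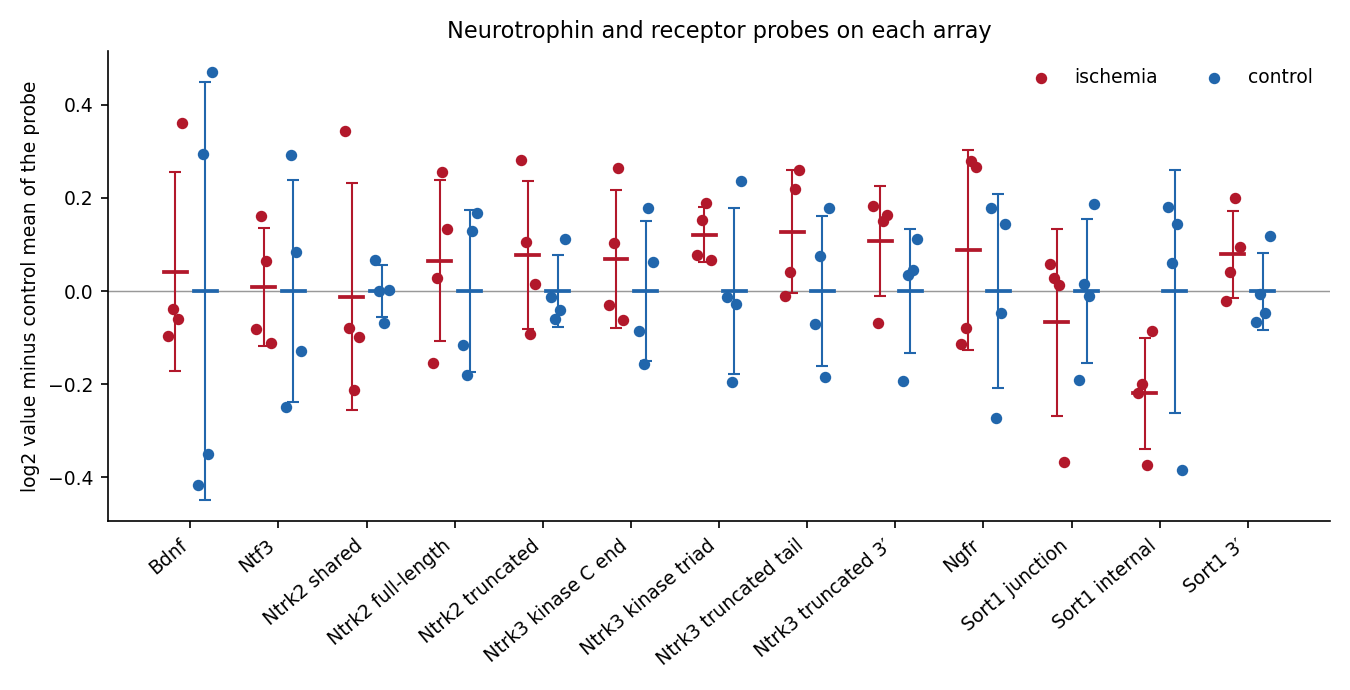
Each point is 1 array, with ischemia (red) left of control (blue) for each of the 13 probes; the vertical axis is the log2 value minus the probe's control mean, thick bars are group means and whiskers are ± 1 SD (n = 4). Red and blue points overlap for all 13 probes, and Bdnf and the internal Sort1 probe have the widest control spread, with SDs of 0.45 and 0.26.

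Several probes read different forms of the same receptor, and their sequences show what each one can detect. Positions are those of the array files on mm9, counted from 1, and sequences are the probes as designed, from 5′ to 3′ along the transcript; capitals mark the codons of the conserved triad that opens the activation loop of kinases in 1 Ntrk3 probe and the stop codon that ends the truncated Ntrk3 protein in another.
Ntrk2 shared (chr13:58979563-58979622, + strand): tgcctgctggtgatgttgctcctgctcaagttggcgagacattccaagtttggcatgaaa
Ntrk3 kinase triad (chr7:85392044-85392103, - strand): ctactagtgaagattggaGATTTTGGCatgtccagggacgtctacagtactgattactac
Ntrk3 kinase C end (chr7:85337455-85337514, - strand): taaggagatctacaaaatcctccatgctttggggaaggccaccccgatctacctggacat
Ntrk3 truncated tail (chr7:85447515-85447574, - strand): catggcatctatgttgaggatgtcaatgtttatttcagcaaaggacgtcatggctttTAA
Sort1 junction (chr3:108157150-108159198, + strand): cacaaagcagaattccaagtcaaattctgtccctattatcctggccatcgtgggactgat
Sort1 internal (chr3:108158404-108158463, + strand): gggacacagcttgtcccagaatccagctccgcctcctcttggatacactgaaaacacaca

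The Ntrk2 shared probe is annotated to transcript variants 1 and 2. It codes for part of the membrane-spanning stretch and the residues next to it, which full-length and truncated TrkB have in common. The Ntrk3 kinase triad and kinase C end probes are annotated to variant 1, which codes for the kinase, and the truncated tail probe to variant 2, which ends without one. The Sort1 junction probe has 60 bases but spans 2049 bases of the genome, as a probe across a splice junction does, and the internal probe lies inside that span, 1254 bases after its start and 735 before its end. The internal probe is annotated to an Ensembl transcript and not to a RefSeq one, and which exon it lies in was not checked against an mm9 annotation. Exon and UTR positions of the other probes were not checked for the same reason.

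The ligand Bdnf was read by 1 probe at chr2:109566961-109567020 on the + strand, annotated to 4 RefSeq transcripts, while RefSeq (GRCm38.p6) lists 12 curated Bdnf transcripts and 7 start sites in its promoter table. Its log2 values were -1.99, -1.93, -1.96 and -1.53 in ischemia 1 to 4, against -2.31, -1.60, -2.24 and -1.43 in control 1 to 4. Control 2 and control 4 were high and control 1 and control 3 low, and all ischemia arrays lay within that control range. The means were -1.85 ± 0.21 in ischemia and -1.90 ± 0.45 in control (SD, n = 4 each), and ischemia minus control was 0.04 (SE 0.22, 95% interval -0.45 to 0.54, limma adjusted p = 0.968). This was the widest interval of the 13 probes. Signal was low, between 67.5 and 146 processed intensity units, although well above background on all 8 arrays.

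Ischemia 4 held the highest Bdnf value of its group. The same array had the highest choroid plexus marker level, 3.67 above the control mean on the log2 scale, where control arrays lay between -0.09 and 0.06. Control 4 had a higher Bdnf value, -1.43, with a choroid plexus marker level of -0.004. Without ischemia 1 and ischemia 4, which had the highest meningeal and choroid plexus marker levels, the Bdnf difference was -0.05. With each array left out in turn it was -0.097 to 0.198, and it was also negative without control 1 or without control 3. The part of choroid plexus tissue in the Bdnf values was not tested.

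Ntf3 was read by 1 probe at chr6:126051431-126051490 on the - strand. Its log2 values were 2.13, 2.38, 2.28 and 2.10 in ischemia 1 to 4, against 1.97, 2.51, 2.30 and 2.09 in control 1 to 4. Control 1 was the lowest and control 2 the highest of the 8 arrays, so the ischemia arrays lay inside the control range. The means were 2.22 ± 0.13 in ischemia and 2.22 ± 0.24 in control (SD, n = 4 each), and ischemia minus control was 0.01 (SE 0.12, 95% interval -0.28 to 0.29, limma adjusted p = 0.989). Ntf3 had the difference nearest to 0 of the 13 probes.

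Of the other ligands, Ntf5, the gene for neurotrophin-4, was well above background on 1 of 4 ischemia and 0 of 4 control arrays and was not tested.

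Ntrk2, the gene for the Bdnf receptor TrkB, was read by 3 probes. The shared probe gave log2 values of 3.15, 2.73, 2.59 and 2.71 in ischemia 1 to 4, against 2.87, 2.81, 2.74 and 2.81 in control 1 to 4. Ischemia 1 was the highest and ischemia 3 the lowest of all 8 arrays, while the control arrays lay close together between them. The means were 2.79 ± 0.24 in ischemia and 2.81 ± 0.06 in control (SD, n = 4 each), and ischemia minus control was -0.01 (SE 0.12, 95% interval -0.28 to 0.26, limma adjusted p = 0.982). The spread was wider in ischemia, with 1 array above the controls and 3 below them.

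The full-length probe, at chr13:59230936-59230995 on the + strand and annotated to variant 1, reads the transcript that codes for the kinase. Its log2 values were 2.61, 2.79, 3.02 and 2.90 in ischemia 1 to 4, against 2.65, 2.59, 2.89 and 2.93 in control 1 to 4. Here ischemia 3 was the highest array and control 2 the lowest. The means were 2.83 ± 0.17 in ischemia and 2.77 ± 0.17 in control (SD, n = 4 each), and ischemia minus control was 0.07 (SE 0.12, 95% interval -0.20 to 0.33, limma adjusted p = 0.888). This probe is printed 10 times on each array, and the SD of the 10 spots was 0.0227 to 0.0617 on the log2 scale, against an SD between arrays of 0.174 in ischemia and 0.174 in control. The spot SD leaves out labelling, hybridization and scaling, so the spread between arrays is not that of pups alone. The difference was 0.0023 without ischemia 3 and 0.139 without ischemia 1.

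The truncated probe, at chr13:59038046-59038105 on the + strand and annotated to variant 2, reads the form without a kinase. Its log2 values were 0.04, -0.13, -0.33 and -0.23 in ischemia 1 to 4, against -0.25, -0.30, -0.28 and -0.13 in control 1 to 4. Ischemia 1 was the highest and ischemia 3 the lowest array, as for the shared probe. The means were -0.16 ± 0.16 in ischemia and -0.24 ± 0.08 in control (SD, n = 4 each), and ischemia minus control was 0.08 (SE 0.09, 95% interval -0.13 to 0.28, limma adjusted p = 0.823). Without ischemia 1 the difference was 0.0092. The astrocyte and radial glia markers averaged 0.16, 0.09, -0.08 and 0.01 in ischemia 1 to 4, against -0.06, 0.03, -0.13 and 0.16 in control 1 to 4, relative to their control mean. Of each group, the array with the highest truncated Ntrk2 signal, ischemia 1 and control 4, was also the one with the highest marker level. The ischemia arrays stood in the same order for both. Among controls, control 2 had the lowest truncated signal, -0.30, but a marker level of 0.03, above control 1 and control 3. The part of glial content in the Ntrk2 values was not tested. In bulk tissue, fewer cells of a type and less RNA per cell cannot be told apart.

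No difference between the groups in the balance of truncated and full-length Ntrk2 was detected. Within an array, truncated minus full-length was -2.57, -2.93, -3.35 and -3.13 in ischemia 1 to 4, against -2.90, -2.89, -3.17 and -3.06 in control 1 to 4. The mean difference between ischemia and control was 0.01 (two-sided exact permutation p = 0.943, adjusted 0.943 over 12 probe pairs). Ischemia 1 held the highest of the 8 values, and ischemia 3 the lowest, with the control arrays between them. Shared minus truncated differed by -0.09 (exact p = 0.200, adjusted 0.943) and shared minus full-length by -0.08 (exact p = 0.8, adjusted 0.943).

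Across the 8 arrays the Ntrk2 probes did not follow each other in the same way. Shared and truncated had a Pearson r of 0.79 (exact permutation p = 0.032, adjusted 0.127) and a Spearman rho of 0.55 (p = 0.171, adjusted 0.410), and r was -0.17 without ischemia 1 and ischemia 3, so the relation rests on those arrays. Shared and full-length had a Pearson r of -0.73 (exact permutation p = 0.019, adjusted 0.116) and a Spearman rho of -0.62 (p = 0.115, adjusted 0.410), and r was -0.59 without the same arrays. With each group centred on its own mean these r were 0.85 and -0.74. None of the 12 correlations between probes of a gene passed adjustment, and all values share the scaling of their array.

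**Figure D2:**
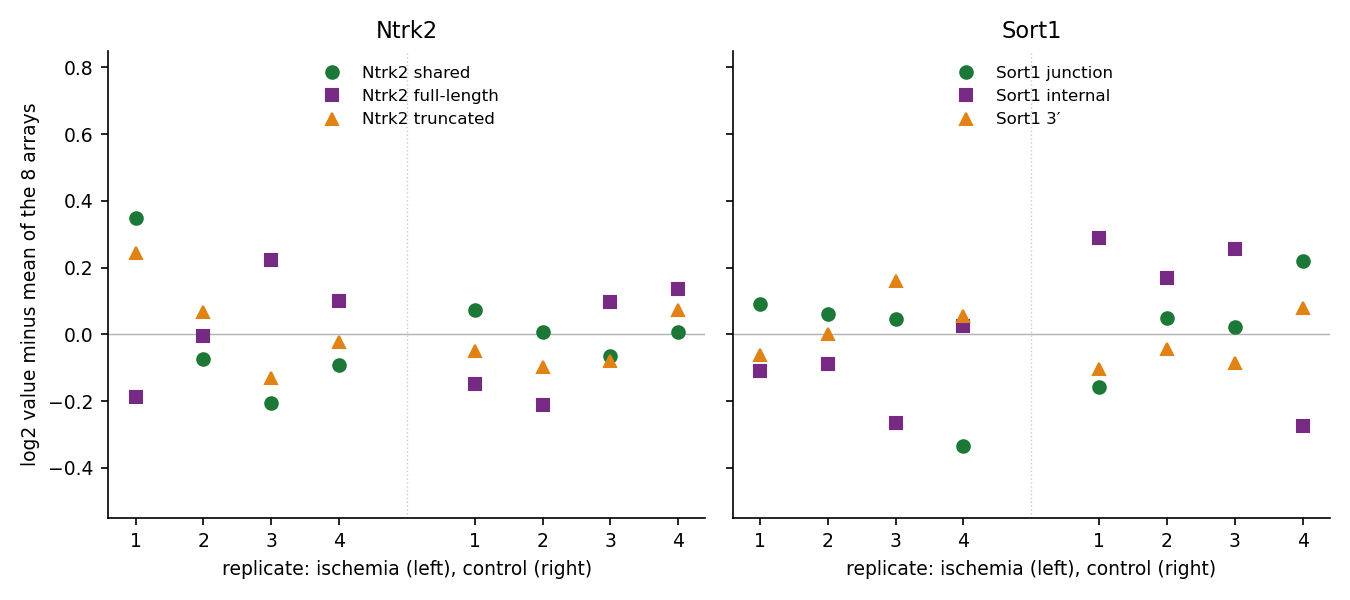
Log2 values of the 3 Ntrk2 probes (left) and the 3 Sort1 probes (right) on each array, minus the probe's mean over the 8 arrays; ischemia 1 to 4 stand left and control 1 to 4 right of the dotted line, and replicate numbers carry no order. The shared and truncated Ntrk2 probes are highest and the full-length probe is low on ischemia 1, and the internal Sort1 probe is above its mean on control 1 to 3 and below it on control 4.

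Ntrk3, the gene for the neurotrophin-3 receptor TrkC, was read by 4 probes, and all 4 had a higher mean in ischemia, by 0.07 to 0.13 on the log2 scale. Of the probes for the kinase form, the kinase C end gave 2.77, 2.90, 3.06 and 2.74 in ischemia 1 to 4, against 2.72, 2.64, 2.98 and 2.86 in control 1 to 4. Ischemia 3 was the highest and control 2 the lowest array. The means were 2.87 ± 0.15 in ischemia and 2.80 ± 0.15 in control (SD, n = 4 each), and ischemia minus control was 0.07 (SE 0.10, 95% interval -0.17 to 0.30, limma adjusted p = 0.867). The kinase triad probe gave 0.53, 0.61, 0.64 and 0.52 in ischemia 1 to 4, against 0.44, 0.26, 0.42 and 0.69 in control 1 to 4, so control 2 was again the lowest but control 4 the highest. For it, ischemia minus control was 0.12 (SE 0.09, 95% interval -0.09 to 0.34, limma adjusted p = 0.717).

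Of the probes for the truncated form, the tail probe gave 1.51, 1.56, 1.74 and 1.78 in ischemia 1 to 4, against 1.45, 1.59, 1.33 and 1.70 in control 1 to 4. Ischemia 3 and ischemia 4 were highest, and control 3 was lowest with the other arrays between. For the tail probe, ischemia minus control was 0.13 (SE 0.10, 95% interval -0.10 to 0.36, limma adjusted p = 0.724). A further variant 2 probe, called truncated 3′ here, at chr7:85445908-85445967 on the - strand, gave 1.01, 0.76, 0.98 and 0.99 in ischemia 1 to 4, against 0.64, 0.86, 0.87 and 0.94 in control 1 to 4. Ischemia 2 lay below the other ischemia arrays, and control 1 was lowest. For it, ischemia minus control was 0.11 (SE 0.09, 95% interval -0.10 to 0.31, limma adjusted p = 0.743).

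No difference between the kinase and truncated forms of Ntrk3 in how they compared between the groups was detected. The 6 within-array contrasts between Ntrk3 probes differed between ischemia and control by -0.06 to 0.01 (exact permutation p adjusted over 12 pairs 0.943 each). The 4 probes share a gene and the same arrays, so their common sign is not 4 separate observations. The 95% intervals of all 4 included 0. With 1 array left out, the kinase C end difference was as low as 0.0043 (without ischemia 3; 0.017 without control 2), the triad difference 0.056 (without control 2), the tail difference 0.065 (without control 3) and the truncated 3′ difference 0.043 (without control 1).

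Ngfr, the gene for the p75 receptor, was read by 1 probe at chr11:95430211-95430270 on the - strand, printed 10 times per array. Its log2 values were 0.13, 0.16, 0.52 and 0.51 in ischemia 1 to 4, against 0.42, -0.03, 0.19 and 0.39 in control 1 to 4. Ischemia 3 and ischemia 4 were the highest arrays, with control 1 and control 4 next, and control 2 was the lowest. The means were 0.33 ± 0.21 in ischemia and 0.24 ± 0.21 in control (SD, n = 4 each), and ischemia minus control was 0.09 (SE 0.14, 95% interval -0.22 to 0.40, limma adjusted p = 0.873). The SD over the 8 to 10 usable spots was 0.0428 to 0.0827, against 0.214 between ischemia arrays and 0.207 between control arrays.

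Sort1, the gene for sortilin, was read by 3 probes, of which the internal one had the difference farthest from 0 of all 13. It gave -0.68, -0.66, -0.84 and -0.55 in ischemia 1 to 4, against -0.28, -0.40, -0.32 and -0.84 in control 1 to 4. Control 1 to 3 lay above all ischemia arrays, and control 4 lay at the same low value as ischemia 3. The means were -0.68 ± 0.12 in ischemia and -0.46 ± 0.26 in control (SD, n = 4 each), and ischemia minus control was -0.22 (SE 0.13, 95% interval -0.52 to 0.08, limma adjusted p = 0.620), with an unadjusted p of 0.131. Without control 4 the difference was -0.35 with an adjusted p of 0.247, the lowest of any of the 13 probes under the 19 settings tried.

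The 3′ probe at chr3:108164349-108164408 on the + strand gave 2.13, 2.19, 2.35 and 2.24 in ischemia 1 to 4, against 2.08, 2.14, 2.10 and 2.27 in control 1 to 4. Ischemia 3 was highest, and the other arrays lay close together. For it, ischemia minus control was 0.08 (SE 0.07, 95% interval -0.09 to 0.24, limma adjusted p = 0.768), the smallest standard error of the 13; without ischemia 3 the difference was 0.038. The junction probe gave -2.69, -2.72, -2.73 and -3.11 in ischemia 1 to 4, against -2.94, -2.73, -2.76 and -2.56 in control 1 to 4. Ischemia 4 lay below all other arrays and control 4 above them. Signal of this probe was the lowest of the 13, between 45.5 and 66.5 processed intensity units, although well above background on all 8 arrays. For the junction probe, ischemia minus control was -0.07 (SE 0.12, 95% interval -0.34 to 0.20, limma adjusted p = 0.890), and without ischemia 1 and ischemia 4 the difference was 0.02.

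Internal minus 3′ was the within-gene contrast with the largest difference between the groups. It was -2.81, -2.85, -3.18 and -2.79 in ischemia 1 to 4, against -2.36, -2.54, -2.42 and -3.11 in control 1 to 4. Control 1 to 3 lay above all ischemia arrays and control 4 near the lowest ischemia array. The difference was -0.30 (two-sided exact permutation p = 0.171, adjusted 0.943 over 12 pairs; the smallest p that 4 against 4 arrays allow is 0.0286). Junction minus internal differed by 0.15 (exact p = 0.543) and junction minus 3′ by -0.15 (exact p = 0.286), both adjusted to 0.943. Over the 8 arrays, internal and 3′ had a Pearson r of -0.81 (exact permutation p = 0.017, adjusted 0.116) and a Spearman rho of -0.81 (p = 0.022, adjusted 0.261), with r at -0.65 without control 1 and control 3. As with shared and full-length Ntrk2, r was negative and did not pass adjustment.

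**Figure D3:**
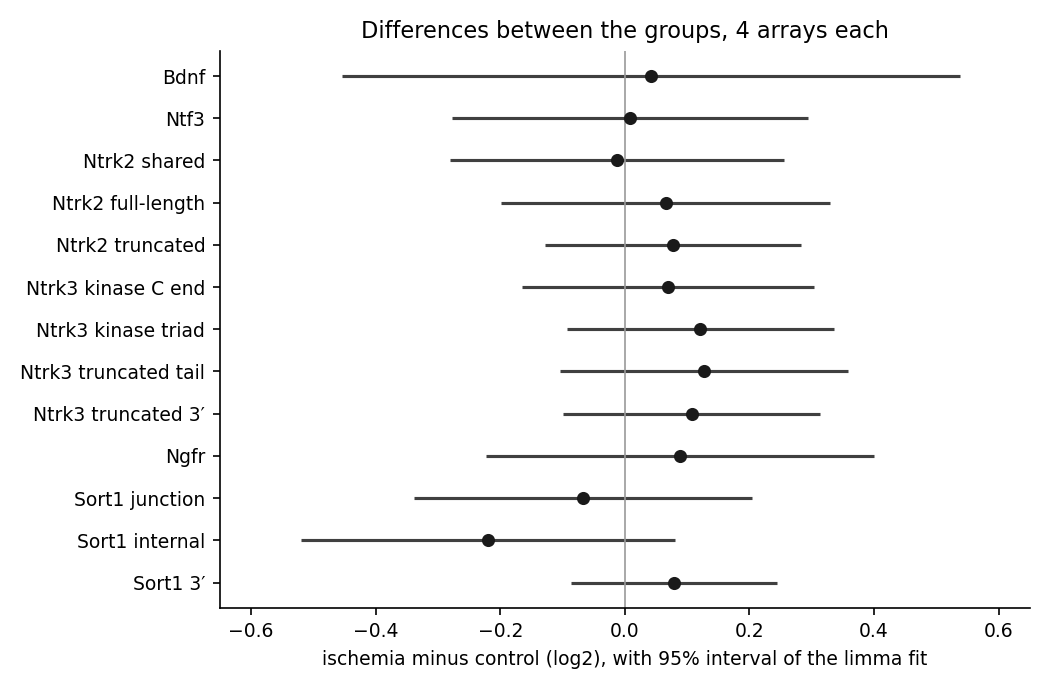
Points are ischemia minus control in log2 units for each of the 13 probes and lines are the 95% intervals of the limma fit (n = 4 arrays per group). All 13 intervals include 0, and the widest, that of Bdnf, runs from -0.45 to 0.54.

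The rest of the pathway was examined through 6 lists of 120 genes, each gene by its brightest kept probe. Of these, 112 were kept, 66 were higher and 46 lower by their means, and limma called 0. At an unadjusted p under 0.05 there were 5 higher and 5 lower, or 8.93% against 10.1% of all probes kept. The smallest adjusted p was 0.239. All ischemia arrays lay above all control arrays for 2 precursor-processing genes, 3 Trk adaptors and kinases, 2 p75 signalling genes and 1 Bdnf-induced gene, against 2.18% of all probes kept. They all lay below for 1 p75 signalling gene and 1 Bdnf-induced gene, against 4.05% of all probes kept.

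Among genes that process neurotrophin precursors, 9 of 12 were kept, 8 with a higher and 1 with a lower mean, with a median of 0.10. Plat, tissue plasminogen activator, which starts the plasmin cascade that can cleave precursor Bdnf, gave 0.44, 0.51, 0.34 and 0.38 in ischemia 1 to 4, against -0.25, 0.14, 0.12 and 0.23 in control 1 to 4. All ischemia arrays lay above all control arrays. Its difference was 0.36 (SE 0.11, adjusted p = 0.364). Cpe, carboxypeptidase E, differed by 0.18 (SE 0.08, adjusted p = 0.5). Mmp9, a secreted protease, was well above background on 2 of 4 ischemia and 4 of 4 control arrays and differed by -1.54 (SE 0.47, adjusted p = 0.368); ischemia 1 and ischemia 2 lay at -4.86 and -5.26, ischemia 3 and ischemia 4 at -3.58 and -2.98, and controls between -3.04 and -2.43. With normexp background correction the Mmp9 difference was -0.51. Plg, Mmp3 and Mmp7 were not kept.

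Among 15 of 17 kept genes that Bdnf or neuronal activity induces, 6 had a higher and 9 a lower mean, with a median of -0.06. Spry4, a feedback inhibitor of receptor kinase signalling, gave -3.49, -3.31, -3.25 and -3.31 in ischemia 1 to 4, against -2.80, -3.05, -2.97 and -2.87 in control 1 to 4. All ischemia arrays lay below all control arrays. The difference was -0.42 (SE 0.08, adjusted p = 0.239), and -0.22 with normexp background correction. Nptx2, a synaptic pentraxin, gave -1.92, -1.80, -1.85 and -2.13 in ischemia 1 to 4, against -2.52, -2.31, -2.25 and -2.15 in control 1 to 4. All its ischemia arrays lay above all control arrays, though ischemia 4 at -2.13 was close to control 4 at -2.15. The Nptx2 difference was 0.38 (SE 0.10, limma adjusted p = 0.327). Egr1, an immediate early transcription factor, differed by 0.19 (SE 0.10, adjusted p = 0.583). Egr3 and Junb were not kept.

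In the list of Trk adaptors and kinases, 45 of 45 genes were kept, 26 with a higher and 19 with a lower mean, with a median of 0.02. Plcg1, the phospholipase that binds activated Trk receptors, differed by 0.23 (SE 0.09, adjusted p = 0.446). Kidins220, a Trk-interacting membrane scaffold, differed by -0.25 (SE 0.08, adjusted p = 0.387), but its other 2 kept probes gave 0.07 and 0.13. Rps6ka2, a kinase downstream of ERK, differed by -0.19 (SE 0.07, adjusted p = 0.454).

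Among p75 signalling genes, 22 of 23 were kept, 15 with a higher and 7 with a lower mean, with a median of 0.03. Rhoa, the small GTPase that p75 regulates, gave 3.1, 3.13, 3.19 and 3.14 in ischemia 1 to 4, against 3.28, 3.33, 3.31 and 3.32 in control 1 to 4. All ischemia arrays lay below all control arrays, with a difference of -0.17 (SE 0.05, adjusted p = 0.368). A second kept Rhoa probe differed by -0.18. Trp53, which codes for p53, differed by 0.24 (SE 0.08, adjusted p = 0.404).

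Among the other ligands and co-receptors, 8 of 10 were kept, 5 with a higher and 3 with a lower mean, with a median of 0.04. The sorting receptor Sorl1, a relative of sortilin, differed by -0.24 (SE 0.14, adjusted p = 0.604), Nradd, a relative of p75, by -0.23 (SE 0.17, adjusted p = 0.690) and the Nogo receptor Rtn4r by 0.08 (SE 0.06, adjusted p = 0.704). Of 13 regulators of Bdnf transcription, all kept, 6 had a higher and 7 a lower mean, with a median of 0.00. Usf1, a helix-loop-helix transcription factor, differed by 0.42 (SE 0.26, adjusted p = 0.632), where ischemia 1 lay at 0.49 and all other ischemia arrays between -0.76 and -0.52; without ischemia 1 it was 0.13. Arnt2 differed by 0.13 (SE 0.06, adjusted p = 0.520) and the kinase gene Camk2a by 0.17 (SE 0.16, adjusted p = 0.763). A second kept Camk2a probe differed by -0.09.

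**Figure D4:**
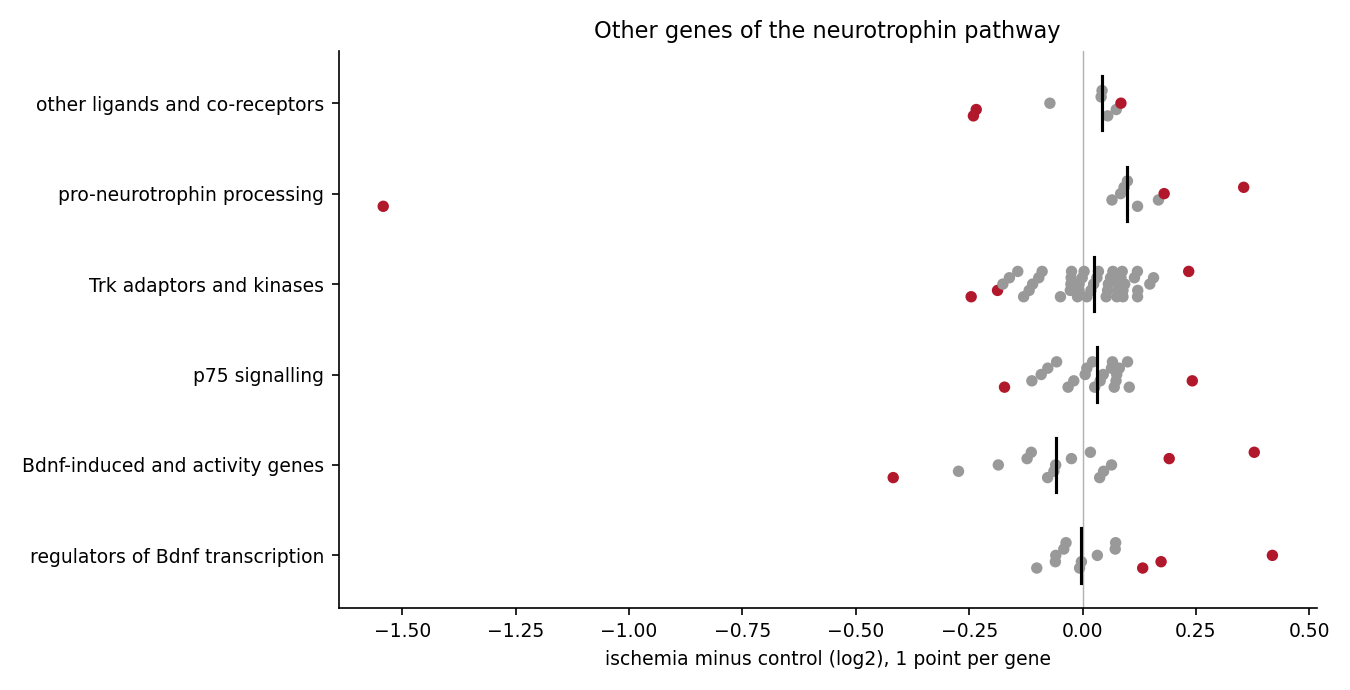
Each point is 1 of 112 kept pathway genes, placed by ischemia minus control in log2 units within its list; black bars are list medians and red points are the genes named in the text, those of each list with the smallest unadjusted p. Medians lie between -0.06 and 0.10, and the far left point is Mmp9.

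Of the spots of an array, 47.6% to 51.7% had a signal well above background and 0 a saturated one, and the 75th percentile was 305.6 to 393.3 intensity units. The arrays were also checked for the tissue they were labelled with. All 9 cortical excitatory neuron markers were kept, and their mean lay between -0.09 and 0.13 of the control mean in ischemia and between -0.06 and 0.04 in control. Meningeal markers, of which 9 of 10 were kept, stood at 1.69, -0.18, 0.61 and 0.86 in ischemia 1 to 4, against -0.23 to 0.28 in control. Choroid plexus markers, 5 of 8 kept, stood at 0.00, -0.65, 0.15 and 3.67 in ischemia 1 to 4, against -0.09 to 0.06 in control. Drd2, a marker of striatal neurons, and Slc5a7, a marker of cholinergic neurons, were well above background on 0 of 8 arrays. Without ischemia 1 and ischemia 4, 10 of the 13 probes were higher and 3 lower, with a median of 0.10, and 0 were called.

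**Figure D5:**
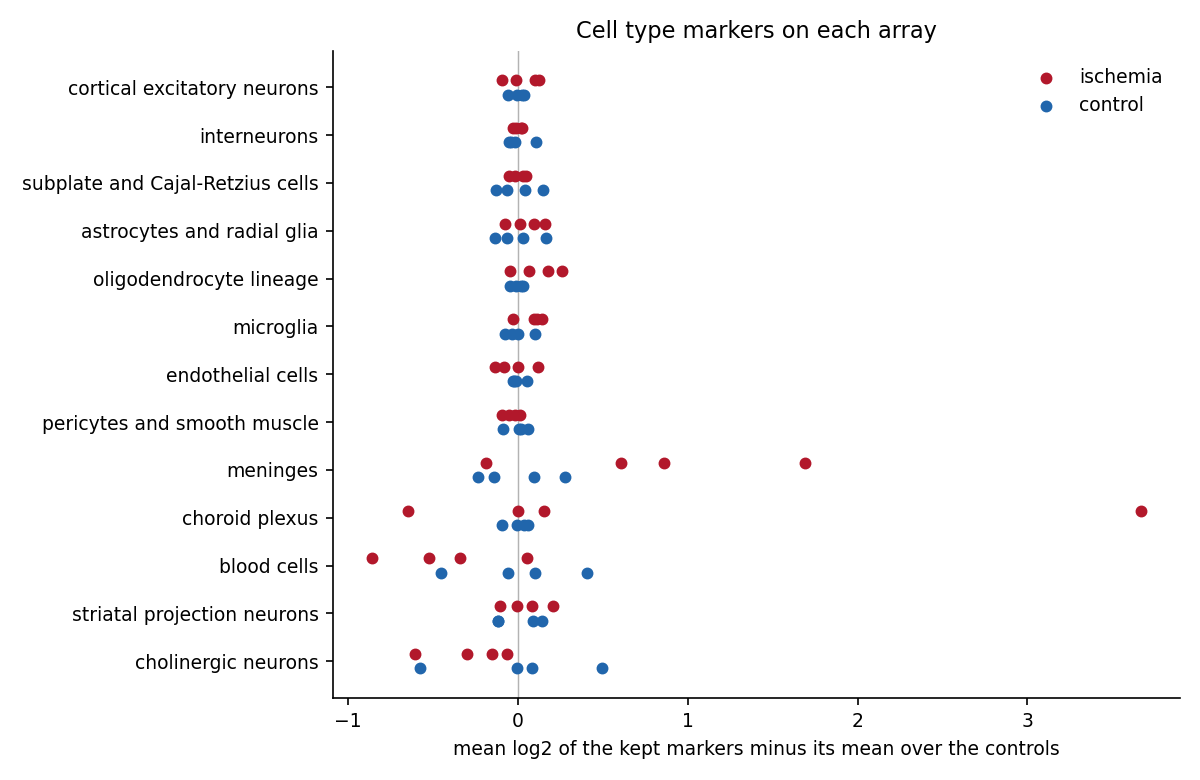
Points are the mean log2 value of the kept markers of a cell type on 1 array, minus the mean of that list over the control arrays; ischemia (red) is drawn above control (blue). Meningeal and choroid plexus markers range widely among ischemia arrays, up to 1.69 and 3.67, while cortical neuron markers stay between -0.09 and 0.13.

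For each member, the 2 genes whose brightest probe varied most like its own over the 8 arrays were named, as a description with no test, from 19751 genes. The highest Pearson r were 0.97 each for Bdnf with Emilin2, an extracellular matrix gene, and B3gnt2, and 0.94 each for Ntf3 with Gm527 and Lmo4. For the shared Ntrk2 probe they were 0.98 with A230101C19Rik and 0.97 with Cyp2d11. The Ntrk3 kinase C end probe had 0.99 with Ank3, the gene for ankyrin-G, and 0.97 with Rab21. Ngfr had 0.97 with Pcdhb3 and 0.96 with Usp27x, and the Sort1 3′ probe had 0.98 each with Extl3 and Slc39a6. Each r rests on 8 points and is the highest or next highest over all genes.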

How the data were processed

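RNA from the cortex of 8 pups (4 ischemia, 4 control) was measured on 8 arrays; per the labels' protocols, 50 ng of RNA was labelled with Cy3. Spot values come from Agilent Feature Extraction 10.7.3.1, per the submitters' processing notes. The deposited intensities are the background-corrected processed signal of each spot, on a linear scale, and, for an alternative, the mean and local background signals. The deposited value table holds a ratio: set against the files, a column is the processed signal over 1 constant for that array, and no source used here says what the constant is. Its direction is that of the signal, and its medians lie between 0.0836 and 0.1003.

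From these, the log2 ratio of the processed signal to the 75th percentile of the array was taken, with spots of a probe averaged. Control spots and 26 probes with only outlier spots on an array were left out. Probes had to stand well above background on 4 or more of the 8 arrays (27131 were kept), a filter that all 13 member probes passed. Ischemia was set against control in R 4.3.3 by lmFit and eBayes of limma 3.58.1, adjusted by Benjamini-Hochberg over all probes kept, with a threshold of 0.05. Differences between probes of a gene within an array were compared by exact two-sided permutation over 70 assignments of the labels. The fit was tested on simulated data. Names of genes that are not members were updated with RefSeq genes of GRCm38.p6. By this, 27229 probes matched by accession, 3586 by symbol and 565 by an older symbol, and 24301 kept the file's name. Beyond names, RefSeq was used only for the counts of Bdnf transcripts and start sites. The number of arrays limits the precision.

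The members and lists were chosen with earlier results of these data known. Named were all member probes, Ntf5, in each pathway list the genes called or else the 3 with the smallest p, for each member the 2 genes most correlated with it, and markers above background on 0 arrays; some genes this rule covers are not reported here. Alternatives were the background correction, the scaling, the filter, the probe rule, the variance model, array weights, the replicate number as a block, the authors' value table and arrays left out.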

Additional observations from a re-analysis of the deposited data

Results flagged for a closer look

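In 5 of 84 sets of 4 arrays, 1 array stood apart from the other 3 of its group by Dixon's test, where chance gives about 5%, or 4.2. All 5 were in ischemia. For Bdnf, ischemia 4 was high, at -1.53 against -1.99 to -1.93 in the other ischemia arrays, a gap of 0.875 of the group's range. Control 4 and control 2 were also high for this probe, so the value lay within the control range. For the Sort1 junction probe (A_51_P517145), ischemia 4 was low, at -3.11 against -2.73 to -2.69, a gap of 0.891 of the range. This probe had the lowest signal of all member probes. Ischemia 4 also had the highest choroid plexus marker level, 3.67 above the control mean, and its part in these values was not tested.

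For the Ntrk3 truncated 3′ probe (A_52_P500274), ischemia 2 was low, at 0.76 against 0.98 to 1.01, a gap of 0.868 of the range. For this probe minus the truncated tail probe (A_55_P2006808), ischemia 1 was high, with a gap of 0.868 of the range. For the internal minus the 3′ Sort1 probe, ischemia 3 was low, at -3.18 against -2.85 to -2.79, a gap of 0.847 of the range.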

How the results depend on the processing

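The count of member probes called was 0 under all 19 alternatives, as was that of pathway genes called, and the lowest adjusted p of a member probe was 0.247. Over all probes the count, 0 in the analysis reported, was 2 with median scaling, 21 with a trended and robust variance, 1 with 1 probe per gene, 1 with the authors' value table and 0 to 1 when 1 array was left out. With the replicate number, which is also the slide column, as a block, 0 probes and 0 member probes were called. Deviations of same-numbered arrays had r of 0.081, -0.066, 0.275 and 0.361 for replicates 1 to 4, and 2 of 4 arrays were nearest their own number. Whether same-numbered arrays pair was not tested. Of 13 member probes, 8 kept their sign under every setting and 5 did not, and the scalings tried turned none.

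With normexp background correction, the difference was 0.0035 for shared Ntrk2, -0.0026 for truncated minus full-length Ntrk2 and -0.0030 for Ntrk3 triad minus truncated 3′. Without ischemia 1 and ischemia 4, it was -0.049 for Bdnf, 0.021 for the Sort1 junction, -0.135 for truncated minus full-length Ntrk2, 0.0134, 0.143 and 0.055 for Ntrk3 kinase C end minus triad, truncated 3′ and tail, and 0.041 for triad minus tail. With each array left out in turn, it was -0.097 to 0.198 for Bdnf, -0.074 to 0.106 for Ntf3, -0.130 to 0.055 for shared Ntrk2, -0.0031 to 0.155 for Ngfr and -0.130 to 0.033 for the Sort1 junction. Among contrasts it was -0.130 to 0.132 for truncated and -0.269 to 0.053 for shared Ntrk2 minus full-length. For Ntrk3 it was -0.110 to 0.017, -0.108 to 0.024 and -0.135 to 0.064 for kinase C end minus triad, truncated 3′ and tail, -0.063 to 0.074 and -0.096 to 0.057 for triad minus truncated 3′ and tail, and -0.091 to 0.057 for truncated 3′ minus tail. The cause was not tested. The Bdnf probe had the largest standard error of the 13.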
